A study of Mus musculus with 16 samples.

Results

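Described here are 9 genes of the antiviral defence in brain microglia/macrophages after stroke, namely Ifitm1, Ifitm2, Ifitm3, Ifitm6, Bst2, Mx1, Mx2, Rsad2 and Samhd1. They were taken by symbol from the deposited counts, where all 9 were found among 32166 genes. RNA-sequencing had been done on CD11b+ microglia/macrophages of male C57BL/6 mice, aged 10 to 12 weeks, on day 3 after transient middle cerebral artery occlusion (MCAO) or sham surgery. There were 4 libraries from MCAO Vdr-cKO mice, 4 from MCAO control mice, 3 from sham Vdr-cKO mice and 5 from sham control mice. Vdr-cKO mice were Cx3cr1 CreER/+; Vdr f/f and lose the vitamin D receptor in Cx3cr1-expressing cells after tamoxifen, and controls were littermates with Vdr f/f alone. Both genotypes therefore carry the floxed Vdr alleles, and the Cre allele, which takes the place of 1 copy of Cx3cr1, is found in Vdr-cKO mice alone. Deletion of Vdr and loss of that copy cannot be told apart in this design. The methods describe tamoxifen for the mice before MCAO and do not limit it to 1 genotype. Whether 1 library was 1 mouse or a pool is not given in the sources used here, so p-values measure the spread between these libraries.

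These genes encode proteins that stop viruses at the membrane or during genome replication, and most are switched on by interferons. Type I interferon binds the receptor Ifnar1/Ifnar2, the kinases Jak1 and Tyk2 activate Stat transcription factors, and these join Irf9 in a complex that binds interferon-stimulated response elements (ISRE) in promoters. The Ifitm proteins sit in plasma and endosomal membranes and hinder fusion of enveloped viruses, and Bst2 (tetherin) holds budding particles at the cell surface. Mx1 and Mx2 are dynamin-like GTPases, Rsad2 (viperin) makes a chain-terminating nucleotide, and Samhd1 removes deoxynucleotides needed for reverse transcription. Inbred C57BL/6 mice carry defective Mx alleles, so the transcripts are induced by interferon without giving full antiviral protein.

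Promoter sequences are shown first because 4 of the 7 promoters found in the RefSeq set used (GRCm38.p6) hold the core of an ISRE. That set had no entry for Mx1 or Mx2, so their promoters were not searched. Each window runs from 250 bases before to 50 bases after the transcription start. The core searched was GAAANNGAAA on either strand, and matches are in capitals, read 5′ to 3′ along the gene's strand. Of all 32851 promoters of this length, 3.44% hold this core. The first matching base lies at 2 and 19 in Ifitm3, at -130 and -124 in Bst2 where the matches overlap, at -120 in Rsad2 on the opposite strand, and at -46 in Ifitm2, counted from the start. Ifitm1 has no match in its window and is shown beside its neighbours in the same cluster. That window lies inside the gene as annotated in GENCODE M21, which starts at 140967221. Bases before that outer start were not searched, so the lack of a match holds for this window only.
Ifitm3, chr7:141010695-141010994, minus strand: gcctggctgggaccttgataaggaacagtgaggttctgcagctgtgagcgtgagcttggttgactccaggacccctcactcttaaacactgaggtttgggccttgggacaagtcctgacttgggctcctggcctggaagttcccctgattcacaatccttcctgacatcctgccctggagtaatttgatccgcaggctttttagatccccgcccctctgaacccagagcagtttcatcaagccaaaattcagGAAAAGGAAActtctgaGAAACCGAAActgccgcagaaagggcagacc
Bst2, chr8:71537423-71537722, minus strand: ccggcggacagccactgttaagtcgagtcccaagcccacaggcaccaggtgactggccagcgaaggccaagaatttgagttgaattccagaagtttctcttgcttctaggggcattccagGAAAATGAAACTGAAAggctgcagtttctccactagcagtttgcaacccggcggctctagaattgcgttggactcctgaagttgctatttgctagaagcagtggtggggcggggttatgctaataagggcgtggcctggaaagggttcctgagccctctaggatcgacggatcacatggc
Rsad2, chr12:26456403-26456702, minus strand: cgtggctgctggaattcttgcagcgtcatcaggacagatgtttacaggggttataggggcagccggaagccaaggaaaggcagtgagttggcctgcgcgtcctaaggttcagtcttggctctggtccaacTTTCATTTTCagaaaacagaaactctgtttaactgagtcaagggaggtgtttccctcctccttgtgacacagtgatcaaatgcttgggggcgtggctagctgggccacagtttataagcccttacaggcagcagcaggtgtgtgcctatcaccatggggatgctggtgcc
Ifitm2, chr7:140955912-140956211, minus strand: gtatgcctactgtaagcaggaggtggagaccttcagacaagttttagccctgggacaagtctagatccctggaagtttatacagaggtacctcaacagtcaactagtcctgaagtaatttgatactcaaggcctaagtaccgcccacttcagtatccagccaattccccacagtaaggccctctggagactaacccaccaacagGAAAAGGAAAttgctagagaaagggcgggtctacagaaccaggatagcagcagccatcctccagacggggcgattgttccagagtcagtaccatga
Ifitm1, chr7:140967826-140968125, plus strand: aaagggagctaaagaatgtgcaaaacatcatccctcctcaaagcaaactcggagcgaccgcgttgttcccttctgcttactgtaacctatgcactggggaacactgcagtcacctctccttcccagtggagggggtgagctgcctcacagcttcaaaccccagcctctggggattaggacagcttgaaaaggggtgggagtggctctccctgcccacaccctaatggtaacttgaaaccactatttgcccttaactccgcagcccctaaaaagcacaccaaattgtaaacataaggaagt
The windows of Ifitm6 and Samhd1 hold no such core. The Ifitm6 window, from 141016843 to 141017142, also lies inside its annotated gene, which ends at 141017924 on the minus strand. The core of a gamma-activated site, TTCNNNGAA, was found in Ifitm3, Ifitm6, Bst2 and Samhd1 and in 8.3% of all promoters. A match describes letters in this window and no binding was measured.

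Library totals ran from 13795946 to 17836796 counts, and the 9 genes took 0.184% to 0.395% of them in MCAO Vdr-cKO, 0.0758% to 0.0847% in MCAO control, 0.0355% to 0.0371% in sham Vdr-cKO and 0.0321% to 0.0397% in sham control libraries. All 9 passed the filter on low counts in every comparison. Levels are given in CPM, counts scaled to the library total after correction for library composition. Cx3cr1 ran from 821 to 1048 CPM in MCAO Vdr-cKO and from 2164 to 2278 CPM in MCAO control libraries, and from 1433 to 3105 CPM in sham Vdr-cKO and from 4572 to 5383 CPM in sham control libraries, each Vdr-cKO library lying below all controls of its surgery. Vdr averaged 3.67 ± 3.19 CPM in MCAO Vdr-cKO and 2.35 ± 0.909 CPM in MCAO control libraries (SD, n = 4 each). After sham Vdr averaged 0.361 ± 0.18 CPM in Vdr-cKO (SD, n = 3) and 0.306 ± 0.325 CPM in control libraries (SD, n = 5). It had 1 to 119 counts per library and was not lower on average in Vdr-cKO. Counts per gene do not measure the deleted part, so these values do not show the deletion. Microglial markers (P2ry12, Tmem119 and 6 others) summed to 9863 to 13535 CPM in MCAO Vdr-cKO, 12112 to 13330 CPM in MCAO control, 18241 to 19575 CPM in sham Vdr-cKO and 17039 to 21021 CPM in sham control libraries, with none at 0.

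Ifitm3 and Bst2 were the most abundant of the 9 transcripts per length of exon in every group. In MCAO Vdr-cKO libraries Ifitm3 had 897 ± 255 and Bst2 601 ± 79.1 CPM per kb (SD, n = 4), and their ranges overlapped. Mx1, Rsad2, Ifitm2, Samhd1, Ifitm1, Ifitm6 and Mx2 followed in that order, from 123 ± 69.6 to 25.4 ± 7.94 CPM per kb (SD, n = 4), each overlapping the next. In MCAO control libraries the order was Ifitm3 at 220.3 ± 16.5, Bst2 at 158 ± 12.8, Ifitm2 at 76 ± 12.8, Ifitm1 at 61.7 ± 18.3, Samhd1 at 30.5 ± 0.513, Mx1 at 22.1 ± 2.2, Ifitm6 at 12.2 ± 2.13, Rsad2 at 11.9 ± 1.76 and Mx2 at 6.31 ± 0.728 CPM per kb (SD, n = 4). Only Ifitm2 with Ifitm1 and Ifitm6 with Rsad2 overlapped there as neighbours in the order. Rsad2 came last in both sham groups, with 1.89 ± 0.236 CPM per kb in Vdr-cKO (SD, n = 3) and 1.21 ± 0.221 CPM per kb in control libraries (SD, n = 5).

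**Figure D1:**
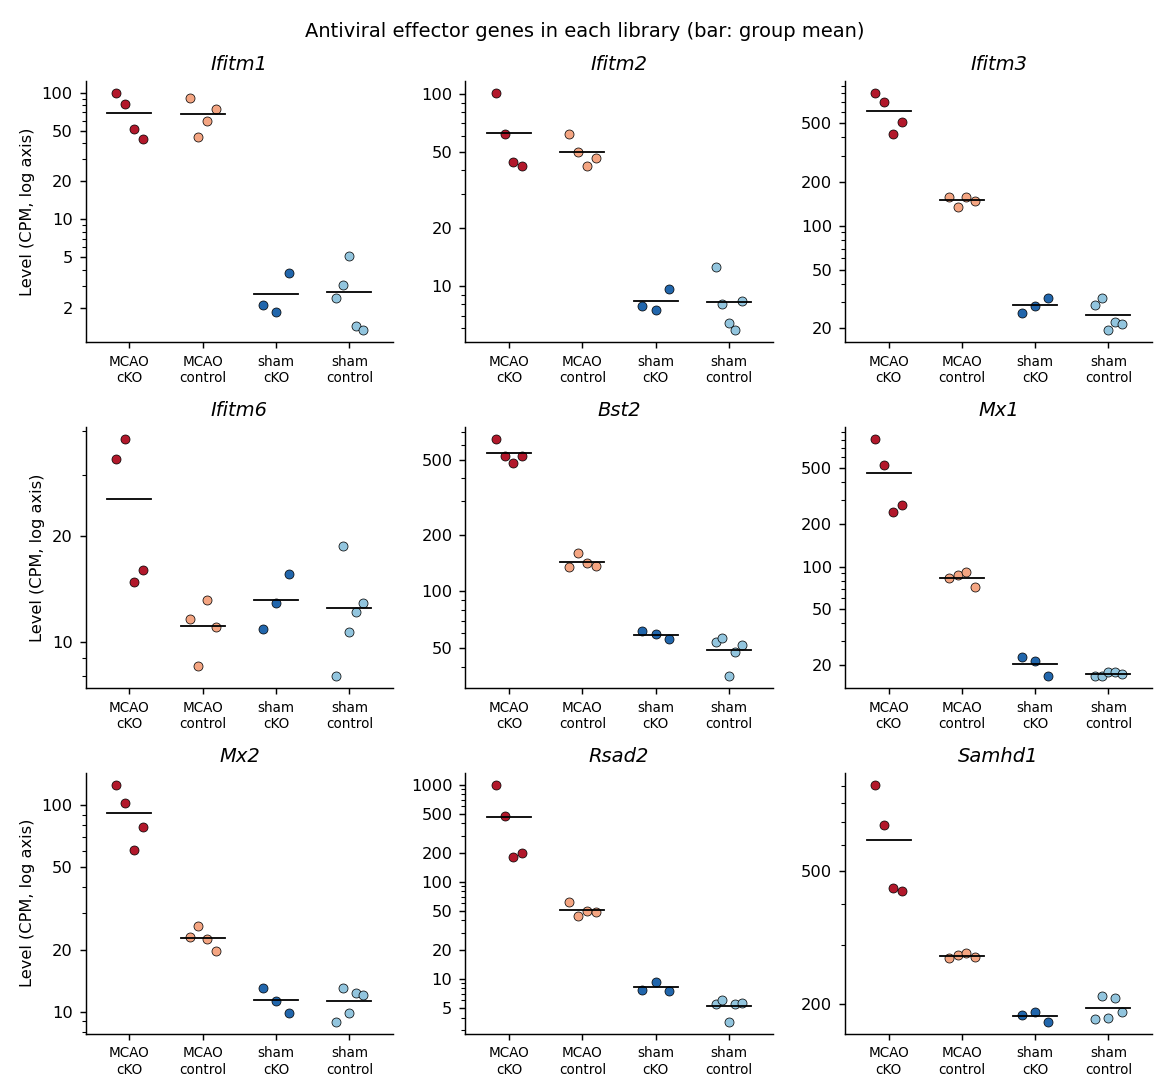
Level of each gene (CPM, log axis) in each of 16 libraries, by group from left to right MCAO Vdr-cKO, MCAO control, sham Vdr-cKO and sham control, with a bar at the group mean. Rsad2 lies at 180.4 to 1007 CPM in MCAO Vdr-cKO and 44.7 to 62.4 CPM in MCAO control libraries, while Ifitm1 overlaps between these groups.

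To assess how the genotypes differed after stroke, MCAO Vdr-cKO libraries were compared with MCAO control libraries. Of the 9 genes, 7 rose in Vdr-cKO, namely Rsad2, Mx1, Ifitm3, Mx2, Bst2, Ifitm6 and Samhd1, and none fell (0 fell also at an unadjusted p under 0.05 by edgeR, and by DESeq2 and limma-voom). Of all 15286 genes tested, 3.24% rose and 1.64% fell (edgeR, adjusted p under 0.05). The median log2 fold change was 1.91 over the 9 genes and 0.01 over all genes. Ifitm1 and Ifitm2 did not pass the test. In bulk RNA, a change in the number of cells of a type and a change in RNA per cell cannot be told apart.

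Rsad2 lies on chromosome 12 of GRCm38 from 26442746 to 26456452, minus strand (ENSMUSG00000020641). It had 1007, 475, 180.4 and 199 CPM in MCAO Vdr-cKO libraries 1 to 4, against 62.4, 44.7, 49.5 and 49.3 CPM in MCAO control libraries 1 to 4. The groups did not overlap, and the first Vdr-cKO library stood far above the others. This gave the largest log2 fold change of the 9 genes, 3.16 (SE, standard error, 0.48, 95% interval 2.11 to 4.22, adjusted p = 0.00265 by edgeR), an 8.96-fold difference. Without Vdr-cKO replicate 1 it was 2.46 (adjusted p = 0.00072 by edgeR).

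Mx1 (ENSMUSG00000000386, chromosome 16 from 97447035 to 97462907, minus strand) and Mx2 (ENSMUSG00000023341, chromosome 16 from 97535308 to 97560900, plus strand) are neighbours in the genome apart from Fam3b. The annotation (GENCODE M21) classes Mx2 as a polymorphic pseudogene, and 4.37% of the 50-base words of Mx1 transcripts and 4.38% of those of Mx2 also occur in transcripts of other genes, the partner among them. Mx1 had 812, 529, 245 and 277 CPM in MCAO Vdr-cKO libraries and 83.9, 87.7, 91.4 and 72.2 CPM in MCAO control libraries. For Mx2 the levels were 126, 103, 60.4 and 78.4 CPM in Vdr-cKO and 23.1, 26.1, 22.5 and 19.6 CPM in control libraries. Neither gene had overlapping groups, and replicates 1 and 2 of Vdr-cKO were above replicates 3 and 4 in both. Log2 fold changes were 2.46 for Mx1 (SE 0.33, adjusted p = 0.00103 by edgeR) and 2.0 for Mx2 (SE 0.20, adjusted p = 0.000151 by edgeR).

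Samhd1, the deoxynucleotide hydrolase (ENSMUSG00000027639, chromosome 2 from 157097533 to 157135265, minus strand), was the member with the narrowest spread in MCAO controls. Its levels were 909, 689.7, 444 and 437 CPM in MCAO Vdr-cKO libraries, against 275, 281, 285 and 276 CPM in MCAO control libraries. All Vdr-cKO libraries were higher than all controls, 1.04-fold being the ratio of the highest to the lowest control. Its log2 fold change was 1.14 (SE 0.20, 95% interval 0.70 to 1.58, adjusted p = 0.00665 by edgeR).

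Bst2 (ENSMUSG00000046718, chromosome 8 from 71534255 to 71537456, minus strand) showed the most even rise. It had 645, 525, 479 and 520.4 CPM in MCAO Vdr-cKO libraries and 134, 159.8, 142 and 136 CPM in MCAO control libraries. The groups were far apart, with a highest to lowest ratio of 1.35 within Vdr-cKO and 1.19 within control. The log2 fold change was 1.91 (SE 0.10, 95% interval 1.69 to 2.14, adjusted p = 3.93e-06 by edgeR), a 3.77-fold difference.

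The 4 Ifitm genes lie together on chromosome 7 but differed in their values. Ifitm3 (ENSMUSG00000025492, from 141009586 to 141010770, minus strand) is the best known of them as a block to viral entry from endosomes. Its levels were 805, 695, 424 and 509.7 CPM in MCAO Vdr-cKO libraries, against 157, 134, 158 and 148 CPM in MCAO control libraries. No Vdr-cKO library came near the controls, and the log2 fold change was 2.02 (SE 0.17, 95% interval 1.63 to 2.40, adjusted p = 7.74e-05 by edgeR).

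Ifitm6 (ENSMUSG00000059108, from 141015699 to 141017924, minus strand) lies 4929 bases from Ifitm3 and was low. It had 33.2, 38, 14.8 and 16 CPM in MCAO Vdr-cKO libraries and 11.6, 8.52, 13.2 and 11 CPM in MCAO control libraries. Replicates 1 and 2 of Vdr-cKO were well above the controls, while replicates 3 and 4 were just above the highest of them. With a log2 fold change of 1.20 (SE 0.29) Ifitm6 just passed the test (adjusted p = 0.0398 by edgeR), and the call was lost in 9 of 17 alternative analyses. Among these were limma-voom (1.08, adjusted p = 0.0957) and leaving out Vdr-cKO replicate 1 (1.05, adjusted p = 0.0946), replicate 2 (0.94, adjusted p = 0.0811) or any 1 control library (adjusted p = 0.0693 to 0.117 by edgeR).

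Ifitm1 (ENSMUSG00000025491, from 140967221 to 140969825, plus strand) did not differ detectably between genotypes. It had 99.9, 81.6, 51.4 and 43.3 CPM in MCAO Vdr-cKO libraries, against 91.2, 44.5, 59.5 and 74.8 CPM in MCAO control libraries. The groups overlapped almost fully, and the log2 fold change was 0.02 with a 95% interval from -0.56 to 0.60 (adjusted p = 0.974 by edgeR). A difference of the size seen for Ifitm3 lies outside this interval.

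Ifitm2 (ENSMUSG00000060591, from 140954837 to 140955987, minus strand) lies 11234 bases from Ifitm1. Its levels were 101, 61.9, 44.2 and 42.1 CPM in MCAO Vdr-cKO libraries and 61.4, 49.6, 41.9 and 46.2 CPM in MCAO control libraries. Only Vdr-cKO replicate 1 stood clearly above the controls, and the log2 fold change was 0.31 (95% interval -0.22 to 0.84, adjusted p = 0.525 by edgeR). Values of Ifitm2 are uncertain, since 48.5% of its 50-base words also occur in transcripts of other genes and 268 of its exon bases are shared with Gm45717.

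**Figure D2:**
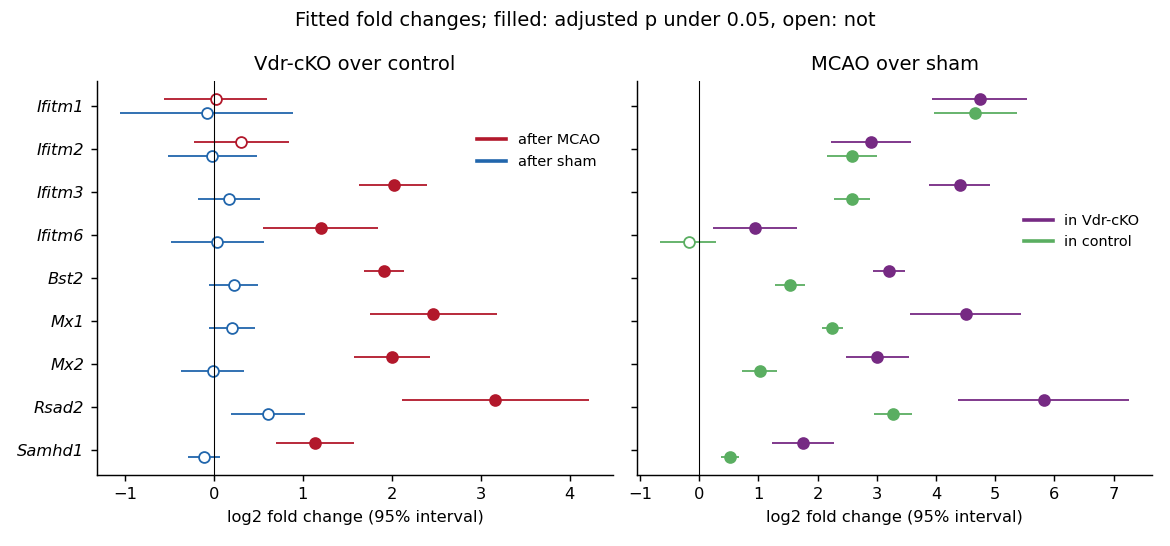
Fitted log2 fold changes with 95% intervals for Vdr-cKO over control (left; after MCAO in red, after sham in blue) and MCAO over sham (right; in Vdr-cKO in purple, in control in green), filled where the adjusted p was under 0.05. After MCAO 7 genes are filled for genotype and after sham none, and for MCAO over sham in control Ifitm6 alone is open.

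Because Ifitm transcripts are also carried by infiltrating myeloid cells and endothelium, marker levels of these cells were set beside the results. Selection for CD11b would remove endothelium, and a gate on intermediate CD45, which the sample notes describe and the methods do not, would remove infiltrating cells with high CD45. The 7 monocyte markers summed to 1488 to 4151 CPM in MCAO Vdr-cKO and 2499 to 3783 CPM in MCAO control libraries (exact permutation test, 2-sided, p = 0.657). Within this list Ly6c2 rose to 285 ± 145 CPM in Vdr-cKO, against 23.6 ± 7.87 CPM in control, and Plac8 to 215 ± 128 CPM in Vdr-cKO, against 33.9 ± 7.05 CPM in control (SD, n = 4 each), and the other 5 did not pass the test. The 10 neutrophil markers summed to 1603 to 1809 CPM in Vdr-cKO and 1499 to 2115 CPM in control (exact p = 0.943). Most of this sum came from Csf3r, with means of 1129 CPM in Vdr-cKO and 1136 CPM in control. The 6 endothelial markers summed to 61.8 to 92.1 CPM in Vdr-cKO and 57.4 to 73.7 CPM in control (exact p = 0.2). The 6 border macrophage markers summed to 838 to 1023 CPM in Vdr-cKO and 1293 to 1575 CPM in control (exact p = 0.0286, the smallest p that 4 against 4 libraries allow). Of these 6, Mrc1 and F13a1 fell in Vdr-cKO (219 against 359.7 CPM in control for Mrc1, 397 against 632 CPM in control for F13a1) and 4 did not pass the test. Cd163, Lyve1 and Cbr2 had log2 fold changes of 0.21, 0.24 and -0.31, and Pf4 averaged 209 CPM in Vdr-cKO and 288 CPM in control. At an unadjusted p under 0.05 by edgeR, 4 of the 6 were lower and 0 higher. None of these markers was at 0 in any library, and their part in the changes of the 9 genes was not tested.

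The makeup of the Ifitm family was compared as the share of each gene in the summed CPM per kb, a measure chosen after the levels were seen. Ifitm3 held 83.1% ± 2.2 in MCAO Vdr-cKO and 59.7% ± 3.68 in MCAO control libraries (SD, n = 4 each). Ifitm1 held 5.75% ± 0.815 in Vdr-cKO and 16.4% ± 3.31 in control, and Ifitm2 held 8.61% ± 1.43 in Vdr-cKO and 20.5% ± 2.73 in control (SD, n = 4 each). None of these 3 genes had overlapping shares. For genotype after MCAO each of the 3 had p = 0.0286 by exact permutation test, the smallest that 4 against 4 libraries allow. Adjusted by Benjamini-Hochberg over 16 tests of shares this was 0.0915, so none passed. The shares add up to the whole, so they restate the levels given above. The lower shares of Ifitm1 and Ifitm2 stand beside mean levels of 69.1 CPM in Vdr-cKO and 67.5 CPM in control for Ifitm1, and of 62.3 CPM in Vdr-cKO and 49.8 CPM in control for Ifitm2. Ifitm6 had 2.52% in Vdr-cKO and 3.3% in control, with shares of 20.1% in sham Vdr-cKO and 21.2% in sham control libraries.

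**Figure D3:**
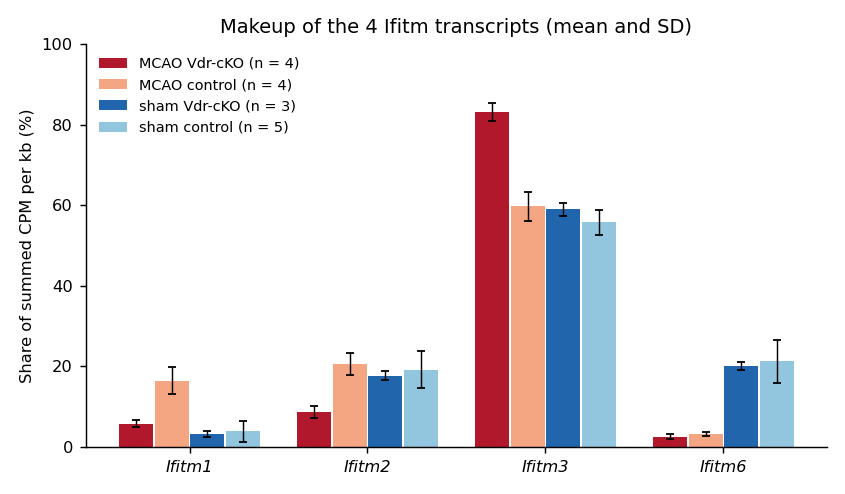
Share (%) of each Ifitm gene in the summed CPM per kb of exon of the 4 genes, as mean and SD over libraries, in MCAO Vdr-cKO, MCAO control, sham Vdr-cKO and sham control. Ifitm3 takes 83.1% in MCAO Vdr-cKO and 55.7% to 59.7% in the other groups.

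The rise was uneven among the 4 MCAO Vdr-cKO libraries, and genes differed in how uneven it was. The ratio of the highest to the lowest Vdr-cKO library was 5.58 for Rsad2, 3.32 for Mx1, 2.57 for Ifitm6, 2.4 for Ifitm2, 2.31 for Ifitm1, 2.09 for Mx2, 2.08 for Samhd1, 1.9 for Ifitm3 and 1.35 for Bst2. In MCAO control libraries it ran from 1.04 for Samhd1 to 2.05 for Ifitm1. Replicate 1 was the highest of the Vdr-cKO libraries for every gene but Ifitm6, where replicate 2 was. The 7 monocyte markers summed to 4151, 3024, 1740.1 and 1488 CPM in MCAO Vdr-cKO libraries 1 to 4, against 3783, 2641, 2499 and 2528 CPM in MCAO control libraries 1 to 4. Microglial markers summed to 9863, 10235, 11883 and 13535 CPM in MCAO Vdr-cKO libraries 1 to 4. Vdr-cKO replicates 1 and 2 were thus the highest of their group in monocyte markers and the lowest in microglial markers, and the part of either in the uneven rise was not tested. With replicates 1 and 2 both left out, log2 fold changes were 1.88 for Rsad2, 1.64 for Mx1, 1.64 for Ifitm3, 1.60 for Mx2, 1.80 for Bst2 and 0.66 for Samhd1 (adjusted p from 1.63e-06 for Bst2 to 0.000276 for Samhd1, edgeR). Ifitm6 then stood at 0.47 (adjusted p = 0.164 by edgeR), and 6 of 9 genes rose, against 482 of 15959 genes tested in that fit.

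**Figure D4:**
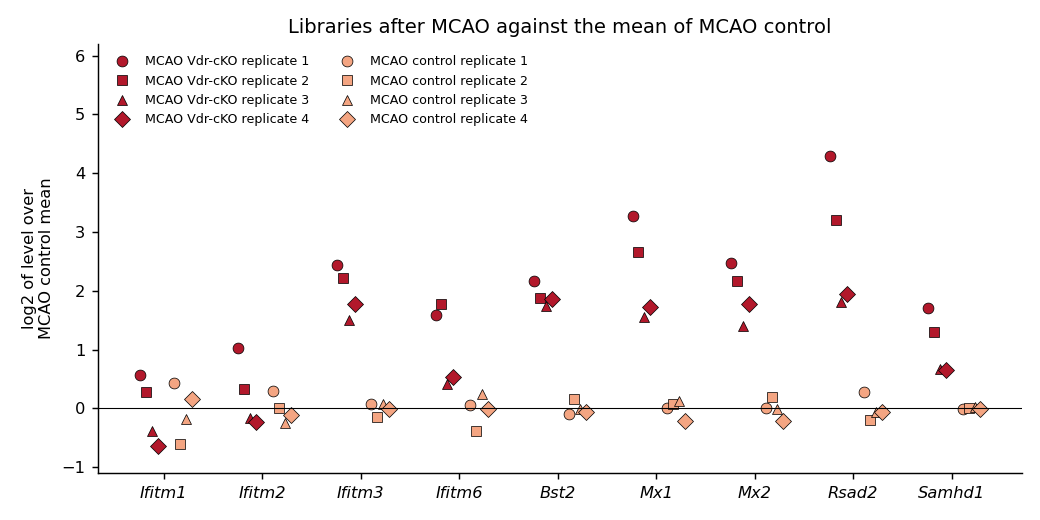
Log2 ratio of the level in each library after MCAO to the mean of MCAO control libraries, MCAO Vdr-cKO left (red) and MCAO control right (orange) of each gene, with a symbol per replicate. Bst2 is nearly level across the 4 Vdr-cKO libraries, whereas Rsad2, Mx1 and Ifitm6 are higher in replicates 1 and 2.

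After sham surgery, the 9 genes were compared between Vdr-cKO and control in the absence of stroke. None of the 9 was called (0 higher and 0 lower by edgeR, and likewise by DESeq2 and limma-voom), and Rsad2 alone had an unadjusted p under 0.05. Of 16425 genes tested, 0.444% were higher and 0.0244% lower. The median log2 fold change was 0.04 over the 9 genes and -0.02 over all genes. Rsad2 had 7.72, 9.37 and 7.5 CPM in sham Vdr-cKO libraries, against 5.48, 6.12, 3.61, 5.51 and 5.59 CPM in sham control libraries. These groups did not overlap, and the log2 fold change was 0.61 (95% interval 0.19 to 1.02, adjusted p = 0.284 by edgeR).

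For the other 8 genes the sham groups overlapped. Bst2 had 61.5, 59.2 and 56 CPM in sham Vdr-cKO and 53.9, 56.8, 35.6, 47.8 and 51.9 CPM in sham control libraries, a log2 difference of 0.23 (95% interval -0.05 to 0.50). Mx1 had 23.1, 21.6 and 16.9 CPM in Vdr-cKO and 16.9, 16.8, 18.1, 18.1 and 17.5 CPM in control, a difference of 0.20 (95% interval -0.06 to 0.46). Ifitm3 averaged 28.6 ± 3.3 CPM in Vdr-cKO (SD, n = 3) and 24.8 ± 5.5 CPM in control (SD, n = 5), with an interval of -0.18 to 0.52 for the log2 difference. Samhd1 averaged 184 ± 6.02 CPM in Vdr-cKO and 194 ± 14.8 CPM in control, with an interval of -0.29 to 0.07. Differences of the size seen after MCAO lie outside these intervals for Bst2, Mx1, Ifitm3 and Samhd1. Mx2 averaged 11.4 CPM in Vdr-cKO and 11.2 CPM in control, Ifitm6 13.1 CPM in Vdr-cKO and 12.5 CPM in control, Ifitm2 8.31 CPM in Vdr-cKO and 8.25 CPM in control, and Ifitm1 2.58 CPM in Vdr-cKO and 2.66 CPM in control. Ifitm1 ran from 1.33 to 5.12 CPM in sham control libraries, and the interval of its log2 difference was wide, at -1.05 to 0.89.

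To see what stroke itself changed, MCAO was compared with sham surgery within each genotype. The fits within a genotype share their libraries with the comparisons above, so each is given with its own values. In Vdr-cKO all 9 genes rose, where 29.3% of 16357 genes rose and 28.8% fell. In control 8 of 9 rose and none fell (0 fell also at an unadjusted p under 0.05 and by DESeq2 and limma-voom), where 31.2% of 16089 genes rose and 32.3% fell. The median log2 fold change over the 9 genes was 3.20 in Vdr-cKO and 2.25 in control, and over all genes it was -0.02 in Vdr-cKO and -0.05 in control. With upper-quartile scaling the medians over all genes were -0.20 in Vdr-cKO and -0.24 in control, with 3766 genes higher and 6182 lower in Vdr-cKO (4796 and 4713 with TMM scaling) and 3850 higher and 6757 lower in control (5024 and 5191 with TMM scaling).

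Rsad2 changed most with stroke in Vdr-cKO, where its log2 fold change was 5.82 (SE 0.65, edgeR adjusted p = 2.91e-05), and it was 3.28 in control (SE 0.15, edgeR adjusted p = 3.52e-09). Without MCAO Vdr-cKO replicate 1 the value in Vdr-cKO was 5.13. Ifitm1 changed most in control, where MCAO libraries averaged 67.5 ± 20 CPM (SD, n = 4) and sham libraries 2.66 ± 1.54 CPM (SD, n = 5). Its log2 fold changes were 4.74 in Vdr-cKO (SE 0.36) and 4.66 in control (SE 0.32). Ifitm2 had 2.90 in Vdr-cKO and 2.58 in control. Both thus rose with stroke in either genotype while showing no detectable genotype difference, and the summed monocyte markers were higher after MCAO as well, with means of 2601 CPM in MCAO and 168 CPM in sham Vdr-cKO libraries (exact permutation p = 0.0571, the smallest that 4 against 3 libraries allow) and of 2863 CPM in MCAO and 153 CPM in sham control libraries (exact permutation p = 0.0159). Their part in the Ifitm values was not tested.

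Ifitm3 rose with stroke by 4.41 in Vdr-cKO and 2.58 in control on the log2 scale, Mx1 by 4.50 in Vdr-cKO and 2.25 in control, and Bst2 by 3.20 in Vdr-cKO and 1.53 in control. Mx2 rose by 3.01 in Vdr-cKO and 1.02 in control. Samhd1 rose by 1.75 in Vdr-cKO and 0.52 in control (adjusted p = 2.73e-05 by edgeR in control), where MCAO libraries had 275 to 285 CPM and sham libraries 180.1 to 211 CPM, without overlap. Ifitm6 was the exception, with a log2 fold change of -0.18 in control (95% interval -0.66 to 0.29, adjusted p = 0.476 by edgeR) and 0.95 in Vdr-cKO (SE 0.32, adjusted p = 0.0252 by edgeR). The Ifitm6 groups overlapped in Vdr-cKO, and the call was lost in 7 of 16 alternatives, with upper-quartile scaling (0.77, adjusted p = 0.0532), limma-voom (0.83, adjusted p = 0.0569) and without MCAO Vdr-cKO replicate 1 (adjusted p = 0.0558) or 2 (adjusted p = 0.0668) or sham Vdr-cKO replicate 1 (adjusted p = 0.088) or 2 (adjusted p = 0.0705). The lowest value, 0.24 (adjusted p = 0.25 by edgeR), was that without MCAO Vdr-cKO replicates 1 and 2 together.

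Whether the genotype difference itself depended on stroke was tested by the interaction term over all 16 libraries. The genotype difference was more positive after MCAO than after sham for 6 of 9 genes and more negative for none (0 also at an unadjusted p under 0.05 and by DESeq2 and limma-voom), where 1.4% of 17335 genes tested were more positive and 1.15% more negative. For Rsad2 the difference of log2 fold changes was 2.54 (SE 0.61, adjusted p = 0.0295 by edgeR), for Mx1 2.24 (SE 0.39, adjusted p = 0.00276), for Mx2 1.99 (SE 0.27, adjusted p = 0.000447), for Ifitm3 1.82 (SE 0.26, adjusted p = 0.000594), for Bst2 1.66 (SE 0.17, adjusted p = 4.81e-05) and for Samhd1 1.23 (SE 0.24, adjusted p = 0.00721). Ifitm6 had 1.14 (adjusted p = 0.193 by edgeR), Ifitm2 0.31 (adjusted p = 0.76) and Ifitm1 0.07 (95% interval -1.06 to 1.20, adjusted p = 0.97). The call for Rsad2 was lost with limma-voom (2.18, adjusted p = 0.265) and without MCAO control replicate 2, 3 or 4, sham Vdr-cKO replicate 1, 2 or 3, or sham control replicate 2 or 5 (adjusted p = 0.0549 to 0.0868 by edgeR). Leaving out MCAO Vdr-cKO replicate 1 gave 1.83.

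Other antiviral effectors, listed by function but with earlier results of these data known, were examined for the same comparison. After MCAO 12 of 18 tested genes rose in Vdr-cKO and 1 fell, where 3.24% of all genes rose and 1.64% fell. The median log2 fold change was 0.90 over these 18 and 0.01 over all genes. Those with the smallest adjusted p were Ly6e, a surface protein that blocks coronavirus fusion (1.20, adjusted p = 0.000133 by edgeR), Adar, the RNA deaminase (1.07, adjusted p = 0.00031), Mov10, an RNA helicase (1.17, adjusted p = 0.000328), and Eif2ak2 (PKR), which halts translation on double-stranded RNA (0.95, adjusted p = 0.000352). Ly6e averaged 2686 ± 328 CPM in Vdr-cKO and 1164 ± 114 CPM in control libraries (SD, n = 4 each). Serinc5, which hinders infectivity of retroviral particles, fell by 0.54 on the log2 scale (adjusted p = 0.00544 by edgeR), with 24.6 ± 2.3 CPM in Vdr-cKO and 35.5 ± 2.18 CPM in control.

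The list members that did not pass were Serinc3 (-0.23), Ifitm10 (-0.16), Marchf8 (-0.11), Plscr1 (0.06) and Ifitm5 (0.85), as log2 fold changes with adjusted p from 0.294 for Serinc3 to 0.894 for Plscr1 by edgeR, and Ifitm7 was too low to test. After sham none of 17 was called (1 had an unadjusted p under 0.05, and DESeq2 and limma-voom called 0), where 0.444% of all genes were higher and 0.0244% lower. With stroke 14 of 18 rose and 2 fell in Vdr-cKO (29.3% and 28.8% of all genes), and 13 of 17 rose and 3 fell in control (31.2% and 32.3% of all genes). By edgeR the interaction was more positive for 9 of 18 and more negative for 0 (1.4% and 1.15% of all genes), with 11 and 1 at an unadjusted p under 0.05 (the 1 being Serinc5, at -0.54), 11 and 1 by DESeq2 and 7 and 0 by limma-voom.

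Of the genes upstream, 9 of 11 could be tested and 3 rose in MCAO Vdr-cKO, with none falling (2 at an unadjusted p under 0.05, none by DESeq2 or limma-voom). Of all genes, 3.24% rose and 1.64% fell in that comparison. The 3 that rose were the transcription factors Irf7 (3.28 on the log2 scale, adjusted p = 2.2e-05 by edgeR), Stat2 (1.74, adjusted p = 0.000151) and Irf9 (0.73, adjusted p = 0.000237). Irf7 averaged 759 ± 280.3 CPM in Vdr-cKO and 77.7 ± 12 CPM in control libraries (SD, n = 4 each). The receptors Ifnar1, Ifnar2, Ifngr1 and Ifngr2 and the kinases Jak1 and Tyk2 did not pass, with log2 fold changes from -0.26 to 0.22. Transcripts of the ligands were too low to test, Ifnb1 averaging 0.661 CPM in MCAO Vdr-cKO and 0.116 CPM in MCAO control. Ifng averaged 0.0167 CPM in MCAO Vdr-cKO and 0 CPM in MCAO control, and 0.0589 CPM in sham Vdr-cKO and 0.0239 CPM in sham control. After sham none of 9 was called (1 at an unadjusted p under 0.05, 0 by DESeq2 and limma-voom), and with stroke 7 rose and 1 fell in either genotype, against the same shares of all genes as above. The interaction was more positive for 3 and more negative for 0, also by DESeq2 and limma-voom (4 and 0 at an unadjusted p under 0.05), against 1.4% and 1.15% of all genes.

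**Figure D5:**
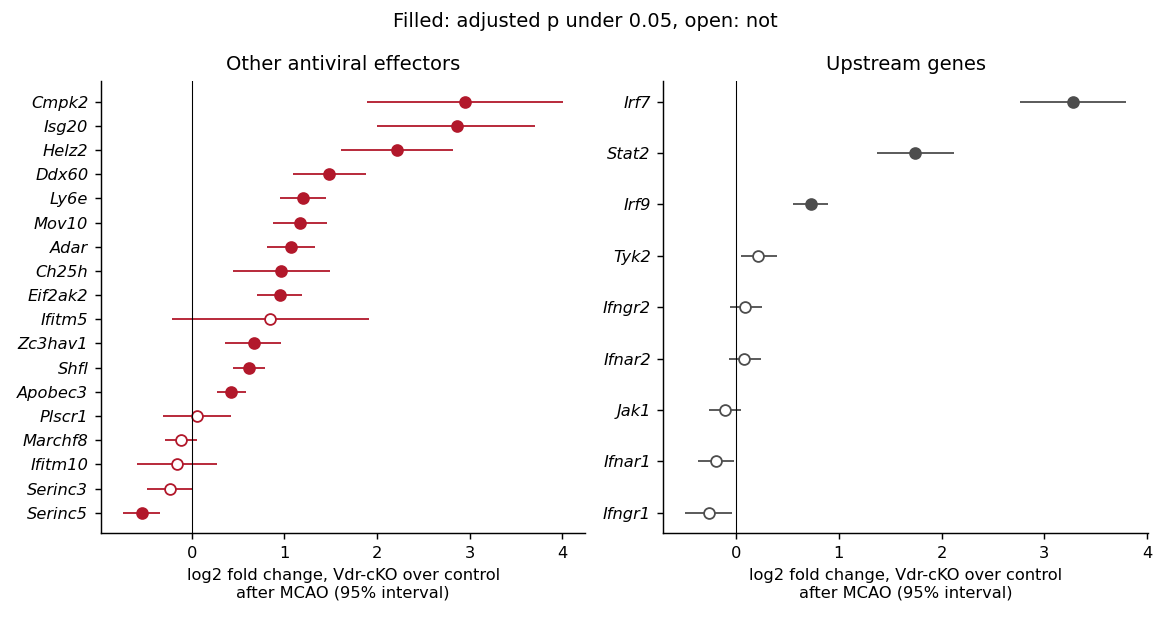
Log2 fold change with 95% interval, Vdr-cKO over control after MCAO, for other antiviral effectors (left) and genes of interferon signalling upstream (right), filled where the adjusted p was under 0.05. Cmpk2 and Irf7 lie at 2.95 and 3.28, and the receptors lie near 0.

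Genomic neighbours of the 9 genes were compared in the same way. Cmpk2, a mitochondrial nucleotide kinase whose gene lies 12752 bases from Rsad2, rose as well. It had 152 ± 128 CPM in MCAO Vdr-cKO and 19.5 ± 3.15 CPM in MCAO control libraries (SD, n = 4 each), with a log2 fold change of 2.95 (adjusted p = 0.00424 by edgeR). On the other side of Rsad2, Rnf144a had 7.52 CPM in Vdr-cKO and 5.68 CPM in control (adjusted p = 0.619 by edgeR). Mvb12a, next to Bst2, rose by 0.46 (adjusted p = 0.043 by edgeR), and Rbl1, next to Samhd1, had a log2 fold change of 0.02 (adjusted p = 0.934). Fam3b, Bace2 and Tmprss2 beside the Mx genes, Ccdc194 beside Bst2 and Tldc2 beside Samhd1 averaged under 1 CPM in both MCAO groups.

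Genes with the most similar profile were looked for among 11091 genes of at least 5 CPM on average, by the root mean square difference of log2 levels centred on each gene's mean over 16 libraries. Ifitm3 was nearest to Oas1a (0.20) and Ifi204 (0.23), Bst2 to Dhx58 (0.20) and Phf11b (0.22), Mx1 to Ifi209 (0.19) and Ifi211 (0.24), and Mx2 to Phf11d (0.19) and Stat2 (0.19). Samhd1 was nearest to Znfx1 (0.12) and Dtx3l (0.14), and Rsad2 to Oasl1 (0.36) and Ifit2 (0.38). Ifitm6 was nearest to Tiam1 (0.32) and Gbp7 (0.33). Ifitm1 and Ifitm2 had other neighbours, Sirpb1c (0.38) and Msr1 (0.40) for Ifitm1, and Sestd1 (0.18) and Gsn (0.19) for Ifitm2. None of these 4 was called between genotypes after MCAO (log2 fold changes from -0.06 to 0.44). They were picked by profile over the same libraries, so this follows in part from the choice. Within the 9 genes, the nearest to Ifitm1 was Ifitm3, at 0.96, whereas Bst2 and Mx2 differed by 0.31 and Ifitm3 and Mx1 by 0.33.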

How the data were processed

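The measurement was RNA-sequencing of 16 libraries in 4 groups taken from the sample labels. Counts per gene, as the authors deposited them, are whole numbers for 32166 genes with no normalization. Among the tools credited by the submitters are bcl2fastq, TopHat, limma and HISAT2 2.1.0, with the build GRCm38. The counting tool, annotation and strand setting are not given in the sources used here, so paralogs and overlapping genes are uncertain. The methods describe isolation with CD11b microbeads and poly-A selection, whereas sample notes describe a sort of CD11b+ cells of intermediate CD45 and removal of ribosomal RNA. The 2 accounts were not reconciled. Names of sham control columns alone carry a read-file ending. No pair of libraries in a group was the same within sampling noise.

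Here, edgeR's filterByExpr and TMM scaling were followed by its quasi-likelihood test, run for each 2-group comparison on its own groups and for the interaction on all 16 libraries. P-values were adjusted by Benjamini-Hochberg over all genes tested, and "rose", "fell" and "called" mean an adjusted p under 0.05. CPM levels use TMM factors over all libraries. Sums of markers and Ifitm shares were compared by exact permutation tests, 2-sided. Positions come from GENCODE M21 on GRCm38 by Ensembl identifier (31473 found), since positions in the file are of another build. Software was edgeR 4.0.16 with R 4.3.3, DESeq2 1.42.0 and limma 3.58.1. The fits were tested on simulated data.

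The 9 genes, the lists and the tests were chosen with earlier results of these data known. A gene was left out of each of 3 lists and is not reported here. By rule the text names all 9, up to 4 genes with the smallest adjusted p of each list of effectors and upstream genes, effectors that did not pass, neighbours, the 2 genes nearest in profile, and markers. Alternatives changed the scaling (RLE, upper quartile), the filter (none, or a minimum of 10 counts throughout), the tool (DESeq2, limma-voom), the libraries fitted together, the block by replicate number, the thresholds, and the libraries left out.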

Additional observations from a re-analysis of the deposited data

Results flagged for a closer look

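Rsad2 in sham control replicate 3, at 3.61 CPM, stood below the other 4 sham control libraries, which ran from 5.48 to 6.12 CPM, by more than the spread of the group allows in a test for a single outlying value. Such a test flags about 1 group in 20 by chance, and 27 groups were tested with 1 flagged. Without that library the log2 fold change of Rsad2 between genotypes after sham was 0.50 (adjusted p = 0.191 by edgeR).

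The genotype difference of 6 genes differed between MCAO and sham by the interaction term of edgeR. The difference of log2 fold changes was 2.54 for Rsad2, 2.24 for Mx1, 1.99 for Mx2, 1.82 for Ifitm3, 1.66 for Bst2 and 1.23 for Samhd1. All 4 MCAO Vdr-cKO libraries were above all 4 MCAO control libraries for each of these 6 genes, and also for Ifitm6, which had no call in the interaction. The same libraries entered the interaction test, so this follows in part from the choice of genes. The share of all genes with such a lack of overlap was not counted.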

How the results depend on the processing

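The number of the 9 genes called ran from 6 to 7 for genotype after MCAO, was 0 after sham, ran from 8 to 9 for MCAO over sham in Vdr-cKO and from 7 to 8 in control, and from 5 to 6 for the interaction over all alternatives, and none was called lower. Of 810 log2 fold changes under alternatives, 746 kept their direction and side of the threshold, 25 lost a call and 39 changed sign, and every change of sign was in a value that had no call. Apart from those on leaving out 1 library, whose ranges follow, the changes of sign for genotype after MCAO were Ifitm1 with limma-voom (-0.01), with the replicate block (0.00, adjusted p = 0.993 by edgeR) and without Vdr-cKO replicates 1 and 2 together (-0.51), and Ifitm2 without both (-0.21). After sham, Ifitm1 had 0.04 and Ifitm2 0.01 with limma-voom, Ifitm2 0.01 and Mx2 0.02 with all 16 libraries in 1 fit, and Mx2 0.08 with the replicate block. In the interaction, Ifitm1 had -0.07 with limma-voom and -0.47 without both replicates, and Ifitm2 -0.22 without both. Leaving out 1 library at a time gave ranges of -0.20 to 0.20 for Ifitm1 and -0.01 to 0.47 for Ifitm2 after MCAO, and after sham of -0.44 to 0.30 for Ifitm1, -0.13 to 0.17 for Ifitm2, -0.10 to 0.23 for Ifitm6 and -0.12 to 0.09 for Mx2. For MCAO over sham in control Ifitm6 ran from -0.31 to 0.00, and in the interaction Ifitm1 from -0.29 to 0.44 and Ifitm2 from -0.02 to 0.46. The cause of these shifts was not tested. Replicate numbers did not pair the libraries, as same-numbered deviations correlated from -0.50 to 0.43, and the replicate block ended 1 call, that of Ifitm6 for genotype after MCAO (1.10, adjusted p = 0.0733 by edgeR).

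Over all genes, 73 were higher and 4 lower for genotype after sham, against 178 and 70 with DESeq2, 124 and 16 without the filter, 147 and 13 with all libraries in 1 fit and 3 and 0 with the replicate block, and leaving out 1 library gave 6 to 161 higher (8 and 6 without sham Vdr-cKO replicates 1 and 2, 161, 44, 44 and 26 without sham control replicates 1, 2, 4 and 5). For genotype after MCAO, 495 were higher and 250 lower, against 725 and 517 with DESeq2, and lower genes numbered 139 without Vdr-cKO replicate 3 and 139, 111 and 103 without control replicates 2, 3 and 4. For the interaction 243 were more positive and 199 more negative, against 398 and 350 with DESeq2 and 193 and 117 with the block. It gave 368 and 358 without sham control replicate 3, 176 and 105 without sham Vdr-cKO replicate 1 and 166 and 111 without sham Vdr-cKO replicate 2. The lowest counts of the 9 genes were those of Ifitm1, 21 to 78 per sham control library, where its coefficient of variation was 58%.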

Other observations

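Markers of other cells were low in all groups. The 7 T and NK cell markers summed to 1.61 to 8.12 CPM in MCAO Vdr-cKO and 0.595 to 2.18 CPM in MCAO control libraries (exact permutation p = 0.0571), and every one of them was at 0 in at least 1 library, Cd3d and Cd3g in 5 of 16. The 3 B cell markers summed to 10.4 to 14.6 CPM in MCAO Vdr-cKO and 14 to 16.5 CPM in MCAO control libraries (exact permutation p = 0.171), nearly all from Cd79b, while Ms4a1 was at 0 in 3 libraries and Cd79a in 1. Dendritic cell markers summed to 26 to 30.9 CPM in MCAO Vdr-cKO and 21.7 to 25.4 CPM in MCAO control (exact permutation p = 0.0286), and to 22.5 to 31.3 CPM in sham Vdr-cKO and 32.7 to 44.7 CPM in sham control (exact permutation p = 0.0357). Markers of neurons and glia summed to 16.4 to 21.8 CPM in MCAO Vdr-cKO and 14.5 to 19.1 CPM in MCAO control libraries (exact permutation p = 0.286).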
